A study of Mus musculus with 24 samples.

Results

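Outside annotated genes, 907 regions of the mouse genome carried m6A peaks in both libraries of 2-cell embryos and in no library of oocytes or zygotes. They were found by pooling the peak intervals of 12 immunoprecipitated libraries and merging those that overlap, which gave 31379 regions. Of these, 6399 overlapped no gene of any kind in the RefSeq annotation, and the 907 are the intergenic regions with a peak in 2-cell replicates 1 and 2 and none in the 6 libraries of germinal vesicle (GV) oocytes, metaphase II (MII) oocytes and zygotes, which are called maternal libraries here. The regions were thus chosen by the presence or absence of a listed peak at these 4 stages, and that pattern is no result. Among all merged regions 7.05% had it, and among the intergenic ones 14.2%.

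The study mapped N6-methyladenosine (m6A), a methyl group on adenosines of RNA, by antibody enrichment from few cells (picoMeRIP-seq). All material came from C57BL/6N mice 8 weeks old, and each stage had 2 biological replicates, each a pool: 49 GV oocytes of the surrounded nucleolus type, 100 and 110 MII oocytes taken 14 h after human chorionic gonadotropin (hCG), 100 zygotes (27 to 28 h), 100 2-cell embryos (39 to 43 h), 100 and 51 8-cell embryos (68 to 70 h) and 100 blastocysts (92 to 94 h). No group carried a genetic change, and the oocyte donors and mothers had received gonadotropins. The lists held from 6914 peaks (zygote replicate 1) to 11959 (GV oocyte replicate 2), with 9161 and 9553 in the 2-cell libraries. Read depth is unknown, and where no peak is listed RNA may be absent, unmethylated or below what that library could detect. The 12 input samples were not analysed here. With 2 libraries a stage, no test between stages was made, and every comparison is a description of the lists.

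The METTL3 and METTL14 writer complex places m6A on nascent RNA, mostly at a short motif with GGACT as a usual form. At the 2-cell stage of the mouse the embryonic genome becomes broadly active while inherited RNA is cleared. In that window, transcripts are known to start from endogenous retroviral elements, MERVL above all, many of which lie outside annotated genes or serve as first exons of 2-cell genes such as the Zscan4 family. The annotation used here names no repeats, so which elements, if any, lie under these regions was not tested.

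The promoter table used here covers 79.9% of the protein-coding genes, and gene starts missing from it were not searched. Of the regions, 5 reached into the 250 bases before a start in that table, the stretch of these loci whose sequence was at hand. They lay before Npl (a sialic acid lyase), Ptges3 (an HSP90 co-chaperone), Pigl (an enzyme of lipid anchor synthesis), Pfdn5 (a prefoldin subunit) and Mrnip, by 185, 102, 98, 75 and 13 bases. The first 3 are shown because they hold most of the overlap, written 5′ to 3′ on the strand of the gene as RefSeq gives it for GRCm38.p6, from 250 bases before the start onward, with GGACT in capitals.
Npl: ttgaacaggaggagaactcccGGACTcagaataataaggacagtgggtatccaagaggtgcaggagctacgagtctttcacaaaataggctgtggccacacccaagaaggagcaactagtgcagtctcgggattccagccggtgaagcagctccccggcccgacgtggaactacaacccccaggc
Ptges3: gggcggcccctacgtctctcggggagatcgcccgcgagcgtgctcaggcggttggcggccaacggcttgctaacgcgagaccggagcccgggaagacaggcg
Pigl: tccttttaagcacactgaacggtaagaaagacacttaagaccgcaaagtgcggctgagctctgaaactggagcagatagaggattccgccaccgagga
The first stretch is chr1:153549780-153549964 on the minus strand, the second chr10:128058732-128058833 on the plus strand and the last chr11:62458191-62458288 on the plus strand. GGACT or its reverse complement AGTCC, which do not overlap each other, was searched on both strands. The Npl stretch held 1 GGACT, and 30.9% of the 32851 promoter windows held the motif in the same bases. The other 4 stretches held none, where for the Pigl bases 17.3% of windows did. The strand of the RNA behind a peak is not in the lists, so a match describes letters only.

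The Npl region, chr1:153549780-153550131, was also the only one of the 5 with both 2-cell summits inside the printed bases. Its fold over input was 4.42 and 2.19 in 2-cell embryos and 2.88 and 3.65 in 8-cell embryos. The Ptges3 region had folds of 8.25 and 15.4 at the 2-cell stage and the Pigl region 17.3 and 7.65. Neither had an 8-cell peak, and the Pigl region was listed again in blastocyst replicate 1, with a fold of 9.61. Thus the most weakly enriched of these 3 was the one with a peak at the 8-cell stage.

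The regions were narrow and recurred at nearly the same position in both 2-cell libraries. Their median width was 382 bp, from 200 to 2406 bp, and 841 of them held exactly 1 peak of each library. The summits of the libraries lay a median of 18 bp apart, and within 50 bp in 666 regions (73.4%). In all they took up 929 peaks (10.1%) of the replicate 1 list and 960 of the replicate 2 list. They spread over 21 chromosomes, with 71 on chromosome 13, 66 on chromosome 7 and 65 on X at the upper end, and 9 on Y, 16 on chromosome 19 and 19 on chromosome 16 at the lower end. On chromosome 14, 22.1% of the intergenic regions belonged to the set, and on chromosome 8 8.91%.

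The 2-cell enrichment is given as a description, since a peak called in both 2-cell libraries was part of the choice and favours strong peaks. The authors' fold enrichment had a median of 8.29 in replicate 1 (2.24 to 75.4) and 7.42 in replicate 2 (2.19 to 39.3). All peaks of those lists, whether or not called in both, had medians of 6.11 and 5.94. Above the list median lay 636 regions in replicate 1 and 606 in replicate 2. The median −log10 q was 18.5 and 17.5, where a value near 1.3 was enough to be listed. Across the 907 regions the folds of the replicates went together, with Spearman's rho of 0.58 and Pearson's r of 0.63 on the log2 scale. These points share libraries and were chosen for a peak in both, so the correlation is a description.

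**Figure D1:**
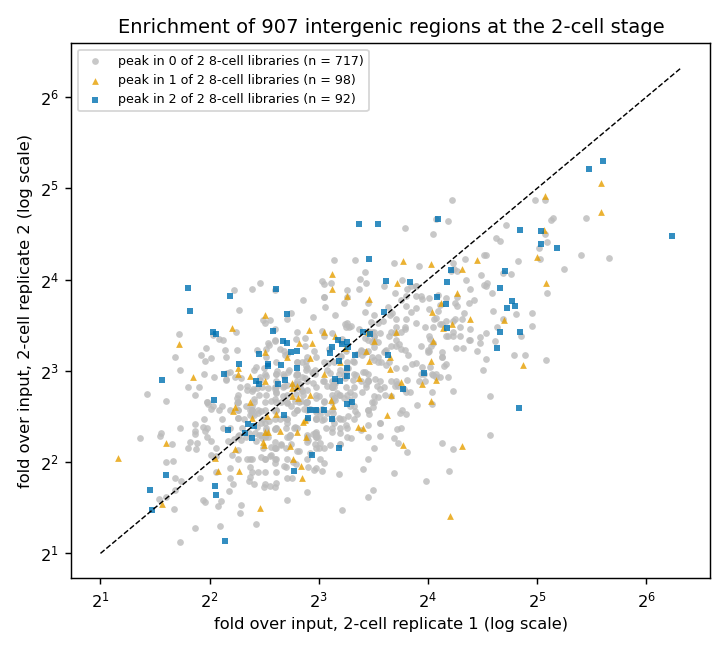
Each point is 1 of the 907 regions, with its fold over input in 2-cell replicate 1 (x, log scale) and replicate 2 (y, log scale), and the dashed line marks equal folds. Squares and triangles are regions that also had a peak in both or in 1 of the 8-cell libraries (92 and 98), and they lie at low as well as high 2-cell folds.

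The most enriched regions, ranked by the lower of both folds, lay 10490 to 529364 bp from the nearest protein-coding gene. On chr7:83422508-83423738 the folds were 48.8 and 39.3 at the 2-cell stage and 7.28 and 6.34 in the 8-cell libraries. The region chr13:4641573-4642038, in a group of 4 such regions 32409 bp from Akr1e1, an aldo-keto reductase gene, had 44.5 and 37.1, and 6.42 and 4.44 at the 8-cell stage. Both thus had peaks at the 8-cell stage with folds well below those at the 2-cell stage. On chr1:152181514-152181748 the folds were 48.1 and 33.3, and 8-cell replicate 1 alone had a peak, of 7.28. The other 7 of the 10 highest, among them chrX:17586036-17587183 (33.6 and 30.1) and chr7:104518343-104519707 (48.0 and 26.8), ranged down to 34.9 and 25.2 at chr4:73853096-73853627. The chromosome X region just named had a peak of 6.42 in 8-cell replicate 1 alone. That at chr7:104518343-104519707 had one of 4.44 in 8-cell replicate 2 alone, and the rest of these 7 had no 8-cell peak.

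The border of the set with the maternal libraries was sharp. Of the intergenic regions with peaks in both 2-cell libraries, 743 also had a maternal peak, 648 of them in all 6 maternal libraries and 6 in exactly 1. Those just outside included chr6:89192230-89192768, with folds of 14.7 and 26.4 at the 2-cell stage and a single maternal peak of 7.56 in GV oocyte replicate 2, and chr12:47544043-47544514, with 10.2 and 5.73 and a GV oocyte replicate 2 peak of 3.02. The nearest maternal peak lay a median of 70442 bp from a member region, and within 1000 bp of 17 regions (1.87%). The border between the 2-cell libraries was wider, since 743 further intergenic regions without a maternal peak were listed in replicate 1 alone and 454 in replicate 2 alone. When 2-cell replicate 1 was left out altogether, its peaks also leaving the merging, 1406 regions met the rule, and 1671 did so without replicate 2. At the border with genes, the regions closest to a gene were 44 bp from Dppa4, which encodes a chromatin factor of early embryos, 48 bp from Gm32913, 66 bp from Npl and 76 bp from Kdm4dl, a histone demethylase-like gene. Regions of the same pattern were left out for 1 bp of overlap with Gm28729, 3 bp with Gm5890, 11 bp with AU015228 and 25 bp with the pseudogene Gm12623.

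Many of the regions came in tight groups. Chained at gaps of at most 10000 bp, 535 of the 907 (59.0%) fell into 216 clusters and 372 stood alone. There were 143 clusters of 2 regions, 55 of 3, 12 of 4, 5 of 5 and 1 of 11. Their median span was 2032.5 bp, and 191 (88.4%) spanned under 5000 bp. Neighbours within a cluster were separated by a median of 428 bp edge to edge (quartiles 198 and 1049 bp, n = 319), and their summits stood 1023 bp apart in replicate 1 and 1033 bp in replicate 2.

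The distance from each region to the nearest other one fell into a near and a far group. Its median was 1479 bp, with quartiles of 286 and 769772 bp, and 44.5% had a neighbour within 1000 bp. Among the 743 intergenic regions with 2-cell and maternal peaks the median was 769051 bp and 20.1% were clustered. Among the 2156 intergenic regions with a maternal but no 2-cell peak these values were 65026 bp and 38.5%, and among the 1306 regions over genes with the pattern of the 907 they were 57156.5 bp and 39.1%. Over all 6399 intergenic regions they were 8251 bp and 51.6%, and over all 31379 merged regions 2821 bp and 66.5%, so the clustered share of the 907 lay between these backgrounds. The sets differ in size, which moves such a gap. Taking the same number of peaks from each library, set by the shortest list, left 653 regions with a median gap of 9554 bp and 50.4% clustered.

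**Figure D2:**
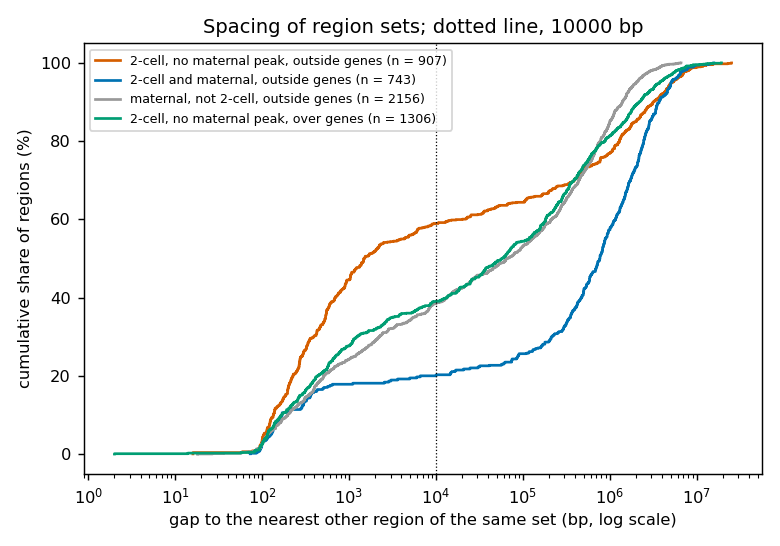
The curves give the cumulative share of regions (y, percent) whose nearest other region of the same set lies within a gap (x, bp, log scale), for the 907 regions, both other intergenic sets and the regions over genes. At the dotted line at 10000 bp the 907 stand at 59.0% and the intergenic regions with 2-cell and maternal peaks at 20.1%, and the curve of the 907 rises little just beyond that line.

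The largest cluster, with 11 regions over 32515 bp at chr6:89171910-89204424, lay between the long non-coding RNA genes Gm1965 and Gm839. The lower fold of its regions ran from 2.42 to 10.7, and 1 of them had a peak in 8-cell replicate 1 and none in replicate 2. This stretch also held 7 regions outside the set: 4 with a peak in 1 of the 2-cell libraries, and 3 with maternal peaks, of which chr6:89202813-89203747 was listed in 5 of the 6 maternal libraries. The cluster as a whole was therefore not free of maternal signal. Nothing similar was seen in the next 4 clusters, where the other regions inside, at most 1 each, had no maternal peak.

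Each of those 4 clusters held 5 regions, and they are the longest of the 5 clusters of that size, the one left out being 3460 bp long on chromosome 7. On chrX:67492104-67497788 (5685 bp) the nearest gene of any kind was 97542 bp away, and on chr4:80227785-80232882 (5098 bp) it was 276456 bp away. The cluster at chr3:119832277-119837374, also 5098 bp long, lay 47630 bp upstream of Ptbp2, a splicing regulator gene, and that at chr5:95170777-95181229 lay 1395 bp from Gm16513. Peaks within a cluster were unequal: on chromosome 3 the 5 folds in replicate 1 were 8.74, 7.42, 9.16, 29.7 and 13.5 from left to right, and in replicate 2 5.80, 4.83, 6.68, 9.01 and 7.36. The fourth region was the highest in both libraries. None of these 5 clusters had a region with a peak in both 8-cell libraries.

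**Figure D3:**
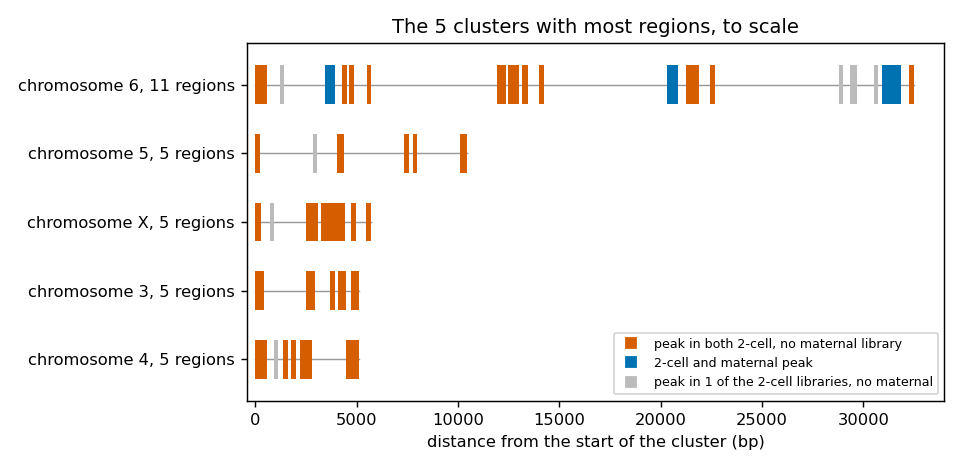
The 5 clusters with the most regions, the longer ones where sizes tied, are drawn to scale from their first base (x, bp), 1 row each, with the regions as blocks coloured by pattern. The chromosome 6 cluster extends over 32515 bp with regions in separate groups and 3 blocks that also had maternal peaks, while those on chromosomes X, 3 and 4 extend over 5685 bp at most.

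Most of the regions, 728 of 907 (80.3%), had some annotated gene within 50000 bp, and 191 (21.1%) had one that was itself marked at the 2-cell stage. Over all intergenic regions these shares were 81.9% and 18.9%, close to those of the 907. The nearest gene of any kind was a median of 13826 bp away, with 50 regions within 1000 bp, 360 within 10000 bp and 89 farther than 100000 bp. This nearest gene was protein-coding for 368 regions (40.6%), a pseudogene for 305 and a long non-coding RNA gene for 182. In the annotation 21900 of 49980 genes code for protein. The kinds of nearest gene were not counted for all intergenic regions, so these counts are not shown to be particular to the 907. The nearest protein-coding gene was a median of 29099 bp away. Over all 6399 intergenic regions the medians were 12813 and 34656 bp.

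A gene that codes for protein and whose body a peak overlapped in both 2-cell libraries is called marked at that stage, and 2817 of 21900 (12.9%) were. The nearest such gene lay a median of 357676 bp from the regions (351470 bp over all intergenic regions), and 76 regions (8.38%) had one within 10000 bp, against 6.56% of all intergenic regions. By the strand of the promoter table, 29 of the 76 were upstream of that gene, 27 downstream and 20 could not be placed. These 76 regions belonged to 54 genes. Counting genes marked in at least 1 of the 2-cell libraries gave 176468 bp, and asking for a peak within 2000 bp of a gene end in both gave 959617 bp.

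Looked at from the nearest gene, the picture depended on the set. For 215 regions the nearest protein-coding gene was within 10000 bp, and it was marked in both 2-cell libraries for 66 of them (30.7%), in 1 for 34 and in neither for 115. The share marked in both was 13.1% for intergenic regions with 2-cell and maternal peaks (130 within that distance), 16.6% for those with maternal peaks alone (481) and 22.4% for all intergenic regions (1646). The 907 had the highest of these shares, and no test was made of the differences. The 2-cell lists that mark the genes also chose the 907 and the set with maternal peaks alone. The order of the shares is therefore a description.

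**Figure D4:**
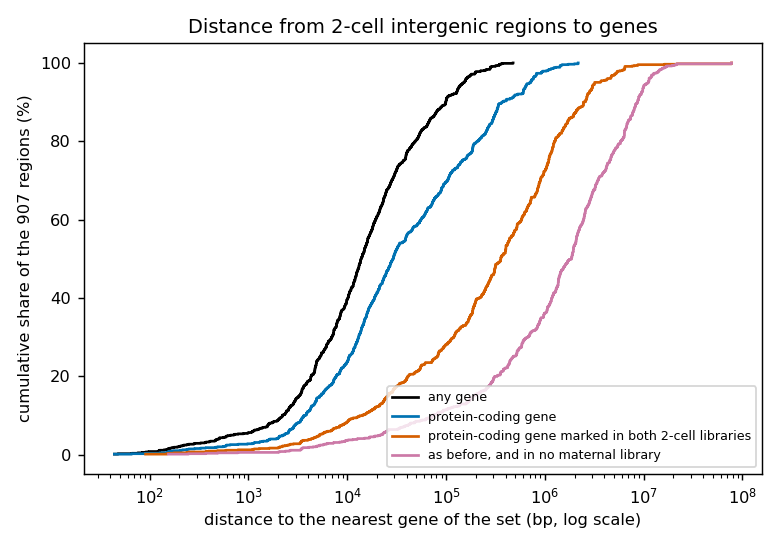
The curves give the cumulative share of the 907 regions (y, percent) within a distance (x, bp, log scale) of the nearest gene of 4 sets: any gene, protein-coding genes, those marked in both 2-cell libraries, and those of them with no maternal peak. At 10000 bp they stand at 39.7%, 23.7%, 8.38% and 3.64%.

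Of the marked genes, 605 had no peak in any maternal library. Within 10000 bp of 20 of these newly marked genes lay 33 regions (3.64%), against 2.00% of all intergenic regions. The closest was chr16:32187099-32188044, 155 bp downstream of Bex6, a gene of the brain-expressed X-linked family, with folds of 10.1 and 9.01 at the 2-cell stage and 5.99 and 8.75 at the 8-cell stage. Next came regions 247 bp from Rnf11, a RING finger protein gene (4.43 and 7.47), and on either side of H2-Q6, a class I histocompatibility gene. There, one region 371 bp upstream had folds of 5.38 and 8.24 and another 784 bp downstream 5.53 and 4.90. None of these 3 had a later peak, unlike the region at Bex6.

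Several newly marked genes had more than 1 region nearby. B020004C17Rik had 5, from 3350 bp on and on both sides. Downstream of Pnlip, the pancreatic lipase gene, 3 regions followed each other at 2359, 3591 and 4852 bp, with folds of 10.7, 5.06 and 5.75 in replicate 1 and 7.93, 6.93 and 5.68 in replicate 2. The nearest of them was the highest in both libraries. Downstream of Rpp25, a subunit gene of ribonucleases P and MRP, the region at 2073 bp had 8.87 and 7.50 and was listed in both 8-cell libraries (11.7 and 4.01), while the region at 3435 bp (4.69 and 4.40) was listed in 8-cell replicate 1 alone. Slc25a36, a mitochondrial carrier gene, and Kmt5b, a histone H4 methyltransferase gene, had 2 regions each at 5715 and 6163 bp and at 5831 and 6299 bp.

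Many genes known from the 2-cell stage had such regions near them. Of a list of 47 such genes, 46 were in the annotation, and 23 (50.0%) had at least 1 of the regions within 50000 bp, where 761 of 21900 protein-coding genes (3.47%) did. Any intergenic region was that close to 36 genes of the list (78.3%) and to 22.8% of protein-coding genes, and these include the 907. No gene of the list was that close to an intergenic region with 2-cell and maternal peaks (2.79% of protein-coding genes were), and 5 (10.9%) were that close to one with maternal peaks alone (7.70%). Many of these genes sit side by side in families of near-identical copies, so they share neighbouring regions, and reads can fit several copies. How such reads were assigned is not given in the sources used here, so the copy a peak belongs to is uncertain. The list, chosen with earlier results of these data known, was also counted by library. Between 6 and 9 of its genes carried a peak in each maternal library, and 32 and 28 did at the 2-cell stage. At the 8-cell stage 23 and 26 did, and in blastocysts 16 and 12. The 2-cell and 8-cell counts lay close together, so the list separates those stages only weakly. The share of all genes with a peak was not computed per library. Of 15 genes of cumulus and granulosa cells, which surround the oocyte, 1 to 5 carried a peak in the maternal libraries and 1 in each later library. In every later library that gene was Nr5a2, which had a peak in all 12 libraries and so does not tell the stages apart.

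In all, 33 regions lay within 50000 bp of a gene of this list. Near the Zscan4 genes, which encode zinc finger proteins of the 2-cell embryo, the region chr7:11025536-11025898 had folds of 43.6 and 25.6, the highest of the 33 by the lower fold, 14989 bp downstream of Zscan4c. Another region there (8.08 and 5.76) and one 6776 bp upstream of Zscan4d (9.74 and 6.79) were weaker. No region of this neighbourhood had a peak in any 8-cell or blastocyst library. The same held for 6 regions near the homeobox genes Obox3 and Obox6, of which chr7:15807501-15808344 stood out with 50.4 and 18.9, the others having 5.29 to 14.0 in replicate 1. It held again for a pair upstream of Usp17ld, a deubiquitinase gene, where a wide region at chr7:103262726-103264787 had 24.6 and 22.0 and its neighbour 4.90 and 2.89.

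Other members of the list had neighbours that lasted. Downstream of Sp110, a nuclear body protein gene, the region at 5022 bp had 7.85 and 5.94 at the 2-cell stage and 8.63 and 9.83 at the 8-cell stage. Of 5 regions near the Tdpoz genes, which encode proteins with TD and POZ domains, chr3:93634591-93634844 had 6.39 and 10.02 at the 2-cell stage and 10.9 and 23.8 at the 8-cell stage, so its fold was higher at the later stage in both replicate numbers. Another, 18801 bp from Tdpoz4, had 7.46 and 5.61, then 5.65 and 5.71, and the remaining 3 had no later peak. At Dppa4 both regions, 44 and 3909 bp away, were listed in 8-cell replicate 2 alone (7.22 and 7.30). The region 4511 bp upstream of Pramel7, of the PRAME-like family, had 6.73 and 6.60 at the 2-cell stage, 7.10 in 8-cell replicate 1, and 6.62 and 15.1 in the blastocyst libraries. Over the 33 regions, 4 (12.1%) had a peak in both 8-cell libraries, against 10.1% of the other 874.

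A repeated layout was seen beside the eIF1A-like genes of chromosome 12. Near Gm2016 a region at 3463 bp (784 bp wide, 9.25 and 9.84) and one at 5287 bp (359 bp wide, 12.5 and 8.08) were 1040 bp apart. Near Gm5662 the regions at 3402 bp (800 bp wide, 5.72 and 6.65) and 5228 bp (414 bp wide, 12.0 and 11.7) were 1026 bp apart. The wider region was thus the one nearer the gene at both, and the farther one had the higher fold in replicate 1. At the 8-cell stage the pair at Gm2016 was listed (4.71 and 7.61 for the nearer, 6.42 in replicate 1 alone for the farther), and the pair at Gm5662 was not. These gene copies resemble each other, and the similarity of the sequences was not tested.

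Most of the regions had no peak after the 2-cell stage. A peak was listed for 145 of them (16.0%) in 8-cell replicate 1, for 137 (15.1%) in replicate 2, for 92 (10.1%) in both and for 190 (20.9%) in at least 1. Among all intergenic regions 4.99% had a peak in both 8-cell libraries and 15.1% in at least 1, and among all merged regions 18.7% and 35.7%. In the blastocyst libraries 27 (2.98%) and 22 (2.43%) were listed, 16 (1.76%) in both and 33 in at least 1, where all intergenic regions had 2.28% in both and 10.7% in at least 1, and all merged regions 15.0% and 35.9%. In none of the 4 later libraries was a peak listed for 715 regions (78.8%), and in all 4 for 13. The share with none was 77.4% of all intergenic regions and 49.3% of all merged regions. Both backgrounds include regions that came from 8-cell or blastocyst peaks. Of the 743 intergenic regions with 2-cell and maternal peaks 95.2% had no later peak, and of the 2156 with a maternal but no 2-cell peak 97.7%.

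Regions outside and over genes with the same history differed in these shares. Of the 1306 regions over genes with peaks in both 2-cell libraries and no maternal library, 540 (41.3%) were listed in both 8-cell libraries, and 24.8% were listed in both of blastocysts. Of the 743 intergenic regions with 2-cell and maternal peaks, 18 (2.42%) were listed in both 8-cell libraries. The 907 thus stood between these sets in both 8-cell libraries, at 16.0% and 15.1% against 48.3% and 49.2% over genes and 3.63% and 3.10% in the other set. Median widths of the merged regions were 382, 448.5 and 669 bp. Maternal peaks add to the width of the last set and not to the others, so these widths are not comparable.

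**Figure D5:**
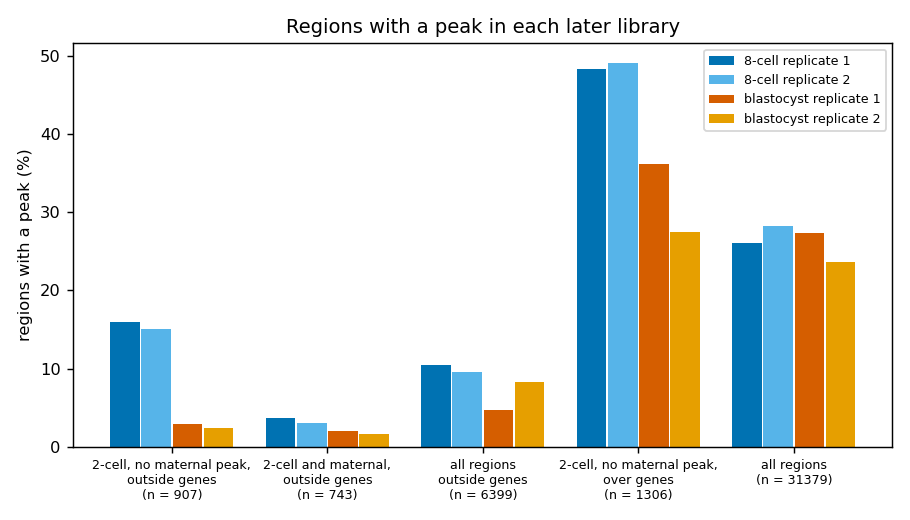
Bars give the percentage of regions with a peak in each 8-cell and blastocyst library (y, from 0), for the 907 regions and 4 other sets (x), whose sizes stand under the bars. In each later library the 907 regions are below the regions over genes with the same 2-cell and maternal pattern and above the intergenic regions that also had maternal peaks.

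Only regions called at both stages allow a comparison of folds. The 92 regions with peaks in both 8-cell libraries had median folds of 7.34 and 6.35 there, and of 8.80 and 9.22 at the 2-cell stage. The 717 with no 8-cell peak had 2-cell medians of 8.25 and 7.14. The 8-cell fold was under the 2-cell fold in 48 of the 92 regions for replicate 1 and in 66 for replicate 2. Replicate numbers do not link the pools of different stages, so this pairing is arbitrary, and the other pairing was not computed. Folds are relative to the input of each library, and their scale between stages was not calibrated.

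Width and the nearness of a gene went with the later peaks. By the width of the 2-cell peaks alone, the widest 227 regions had 46 (20.3%) in both 8-cell libraries, and 3 like groups below them, from the narrowest on, had 7.96%, 5.70% and 6.64%. Split in 4 by the lower 2-cell fold, the regions had 8.85%, 9.69%, 7.93% and, for the highest, 14.1%. Within 10000 bp of any gene 57 of 360 regions (15.8%) were listed in both, beyond it 35 of 547 (6.40%), and beyond 100000 bp 2 of 89 (2.25%). At that limit of 10000 bp the 2-cell folds were alike, with medians of the lower fold of 6.41 and 6.40. Single regions had 8.60%, those in clusters of 2 14.3% and those in larger clusters 7.63%. In 14 of the 216 clusters every region was listed in both 8-cell libraries, and in 174 none was. By chromosome the share ran from 0 of 27 on chromosome 8 and 0 of 16 on chromosome 19 to 10 of 44 (22.7%) on chromosome 11.

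The strongest of the later peaks lay at a few places. On chr11:60576158-60576411, 409 bp from the pseudogene Gm12623 and 17646 bp downstream of Alkbh5, which encodes an m6A demethylase, the folds were 28.8 and 23.3 at the 2-cell stage, 17.6 and 14.2 at the 8-cell stage and 6.14 and 9.62 in blastocysts. The values were lower at each later stage, and the libraries of different stages did not overlap. No 2-cell peak overlapped Alkbh5. The region left out of the set for 25 bp of overlap with Gm12623, chr11:60575725-60576049, ended just before this one. On chr11:3617558-3618798 the folds were 11.0 and 18.7, then 14.5 and 15.9, so the stages overlapped, and no blastocyst peak was listed. At chr14:75840809-75841114, 4142 bp upstream of Tpt1, a translationally controlled tumour protein gene, both 8-cell folds (13.0 and 10.3) were above both 2-cell folds (8.59 and 9.17). A maternal peak lay only 144 bp from this region. Its nearest gene of any kind was the long non-coding RNA gene Gm4285, 1804 bp away, and no 2-cell peak overlapped Tpt1. At chr15:84649953-84650482, 12724 bp upstream of Prr5, a gene of mTOR complex 2, the 2-cell folds were 6.11 and 14.8 and the 8-cell folds 13.7 and 12.1.

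The Speer genes of chromosome 5, which encode glutamate-rich proteins of male germ cells, held a group of lasting regions, singled out after their values were seen. Between 14917751 and 15662016 on that chromosome, 10 regions were found, of which 8 had a peak in both 8-cell libraries and 5 in all 4 later libraries. The other 8 with peaks in all 4 were on chromosomes 1, 2, 4, 11, 15 and 16. Without these 10, 84 of 897 regions (9.36%) had a peak in both 8-cell libraries. Of the 10, 8 were upstream of Gm9758, Speer4e, Gm10354, Gm17019, Gm21149 or Gm21190, all at 2544 to 3488 bp.

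Their values differed from gene to gene. Upstream of Gm17019 the region chr5:15035601-15037915, 2315 bp wide, had folds of 14.3 and 15.7 at the 2-cell stage, 18.7 and 12.3 at the 8-cell stage and 8.24 and 6.79 in blastocysts. Upstream of Gm21149 chr5:15479338-15481743, the widest of all 907 at 2406 bp, had 16.9 and 14.0, then 10.3 and 10.5, then 6.52 and 6.23. In both, each blastocyst fold was under every 2-cell and 8-cell fold. Upstream of Speer4e the folds were 18.1 and 15.7, then 14.7 and 6.34, then 7.55 and 10.8, so the last stages overlapped. Upstream of Gm21190, in contrast, chr5:15532710-15533939 had 28.6 and 6.03, then 10.9 and 16.0, with no blastocyst peak, and the region beside it (7.49 and 3.85) had no later peak at all. Of the 8 regions upstream of these genes, 6 had a peak in both 8-cell libraries and 4 in all 4 later libraries. The 2-cell medians of the 10 were 15.6 and 9.21. These genes too are near-identical copies, so the 10 regions may not be independent sites.

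Elsewhere, regions with peaks in all 4 later libraries did not share a direction. A pair on chromosome 11, upstream of Gm9631, had 10.3 and 24.4 at the 2-cell stage and 10.4 and 12.7 in blastocysts for chr11:121941392-121942410, and 5.47 and 9.12 against 12.9 and 16.4 for its neighbour chr11:121942526-121944260. The neighbour thus had higher folds in blastocysts than at the 2-cell stage in both libraries. At chr2:178037505-178037984, 1646 bp downstream of Zfp971, a zinc finger gene, the folds were 8.69 and 9.59, then 7.53 and 7.98, then 8.23 and 9.83, within a narrow range at all 3 stages.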

How the data were processed

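The 12 immunoprecipitated libraries (6 stages, 2 pools each) were analysed and the inputs were not. The tools named include cutadapt 1.8.1, HISAT2 2.1.0, SAMtools 1.9 and MACS2 2.1.2 on mm10, per the submitters' processing notes. Which parameters they ran with is not given in the sources used here. Names of the peaks show that the authors called each library by itself, with its own stage's and replicate's input as control. Every line holds a score of the authors that follows the −log10 q, a fold enrichment (ratio to input) as the authors' caller gave it, and deposited −log10 p-values and −log10 q-values. These were used only to describe and rank peaks. Without counts, depth is unknown and no interval could be made.

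Summits sharing an interval were taken as 1 peak with its best q. Peaks of all libraries were merged from 1 bp of overlap on, with Python 3.11.15 and pandas 2.3.3, and a peak or gene overlapped a region from 1 bp on. Genes, with their whole bodies, came from a RefSeq table of GRCm38.p6 (49980 genes), the assembly of mm10, and strand from its promoter table, which covers 79.9% of the protein-coding genes. Distances run from edge to edge, 1-based. The merging and distance steps were tested on simulated intervals with known answers.

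The regions, the lists and the alternatives were chosen with earlier results of these data known. Named were the 10 regions with the highest lower fold, the 5 largest clusters (ties by the longer span), the 8 strongest in both 8-cell libraries, up to 6 listed in all 4 later libraries, the 4 widest, the 8 nearest a newly marked gene, those within 50000 bp of a gene of the 2-cell list, and regions at the borders of the rule. The text gives a selection of these, and the further regions near newly marked genes, the promoter overlaps, the Speer neighbourhood and chr11:121941392-121942410 were added after their values were seen. Alternatives changed the merging, the gene filter, the q threshold, the list length, the overlap, the chaining gap, the definition of a marked gene and the libraries, 1 at a time.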

Additional observations from a re-analysis of the deposited data

How the results depend on the processing

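The number of regions was between 653 and 1180 under the 7 alternatives that kept all libraries, and 99.5% of the 653 with lists of equal length (6914 peaks each) overlapped one of the 907. Leaving out 1 library gave 907 to 1671 regions, the extremes above 910 being 1406 without 2-cell replicate 1 and 1671 without 2-cell replicate 2, where a peak in the other was enough. The share with peaks in both 8-cell libraries was 13.3% when only protein-coding genes excluded a region, 7.11% for regions at least 5000 bp from any gene, 7.35% with equal lists, and 6.58% to 16.2% without 1 library. Without 8-cell replicate 1 or 2, a peak in the other was enough, which gave 15.1% and 16.2%. With both 8-cell libraries kept, leaving out 1 library gave 6.58% to 10.2%. For both blastocyst libraries the share was 3.39% when only protein-coding genes excluded a region. It was 0.871% at least 5000 bp from any gene, and 1.14% to 3.08% without 1 library. Without blastocyst replicate 1 or 2, a peak in the other was again enough, which gave 2.43% and 3.08%. The clustered share was 54.0% at a −log10 q of at least 5, 50.4% with equal lists, 63.2% with chaining gaps of 50000 bp, and 58.9% to 62.0% without 1 library. The median gap was 3637 bp at that q threshold, 9554 bp with equal lists, and 1382.5 to 1720 bp without 1 library. The median distance to a gene marked at the 2-cell stage was 176468 bp when 1 library was enough, 959617 bp for peaks near gene ends, and 202804 to 358056 bp without 1 library, both 2-cell libraries giving the low values (202804 and 212906 bp). Apart from fewer peaks, fewer regions or fewer libraries in these settings, the cause was not tested. No paired analysis was possible because no result comes from a test. With depth unknown and 2 libraries a stage, a missing peak gives no bound on the level.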
